A study of Mus musculus with 18 samples.

Results

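The B cell receptor and B lineage genes Cd79a, Cd79b, Blnk, Cd22, Cd72, Pou2af1 and Cd24a were followed in mouse hearts with and without a heart-specific TNF-alpha transgene. These 7 genes were chosen by symbol: every probe set of the array whose platform annotation names one of them, and no other gene, was taken. That gave 9 of 12422 non-control probe sets, and 7 of the 8251 genes that a probe set names alone. Blnk and Pou2af1 each had 2 probe sets.

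A B cell senses antigen through membrane immunoglobulin, which signals only when paired with the Cd79a and Cd79b proteins (Ig-alpha and Ig-beta). Their tails carry tyrosine motifs to which the kinase Syk binds once they are phosphorylated, and Blnk, the B cell linker, then holds Btk and phospholipase C gamma together. Cd22, a sialic acid binding lectin, and Cd72, a C-type lectin, recruit the phosphatase Ptpn6 and dampen this signal. Pou2af1 (OBF-1) is a coactivator that binds octamer factors on immunoglobulin promoters, and Cd24a (heat stable antigen) is a glycosyl-phosphatidylinositol anchored protein of immature B cells that many other cells also carry. Healthy heart muscle holds few B cells, and Blnk, Cd72 and Cd24a are also known from macrophages or other myeloid cells.

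The hearts came from FVB mice of 3 weeks without the transgene (2 female and 3 male arrays) and from TNF-alpha transgenic mice of 3 weeks (3 female and 3 male arrays), 13 weeks (3 male arrays) and 40 weeks (3 female arrays). The labels call the transgene cardiac-specific and give neither its promoter nor the number of lines or animals. They do not say that arrays of a group stand for separate mice, so a p-value measures the spread between these arrays, which may be technical. FVB hearts were measured at 3 weeks alone, and the later ages differ in sex, so an age change is one among transgenic hearts of the same sex. The study addressed expression during hypertrophy and later heart failure. In whole-heart RNA, fewer cells of a type and less RNA per cell cannot be told apart.

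Signal is the probe set intensity as deposited, on a linear scale that the authors had set to a common level (trimmed mean 500.3 to 500.4 on every array). Signals under a floor of 44.675, the 25th percentile of all values, were treated as equal to it. Tnf signal was 12.5 to 124.9 in FVB and 5475.5 to 12082.3 in transgenic hearts. The array that fills both FVB female columns 1 and 2, which were identical and counted once, stood apart. Only 7.33% of its probe sets lay at the floor, against 23.7% to 28.3% on the other 16 arrays, and its median Spearman correlation with the others was 0.804, against 0.912 to 0.967. The arrays labelled FVB male 1 and 2 carried Xist, a transcript of the inactive X, at 1380.6 and 2705.7, against 5.9 on FVB male 3, which goes against their label. The Y-linked Eif2s3y was 298.7 on FVB male 1, 67.4 on FVB male 2 and 544.9 on FVB male 3, against 115.3 on the outlying FVB female array, 40.9 on FVB female 3 and 2.9 to 30.8 on the transgenic female arrays, so FVB male 1 carried both transcripts. The members' effects over both sexes at 3 weeks are given with and without the outlying array, and those in males with and without FVB male 1 and 2. Without all 3 arrays Blnk, Cd79b and Cd24a were still called higher over both sexes (limma adjusted p = 1.28e-06, 2.43e-05 and 0.0058). Of cardiomyocyte markers, 10 of 11 were on the array and the sum of their signals was 189978.2 to 318822.4 in FVB and 107791.8 to 204186.8 in transgenic hearts of 3 weeks.

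Promoter sequence shows what the genes carry next to their start. RefSeq (GRCm38.p6) windows of 300 bases, from 250 before to 50 after the start, matched 5 of the 7 genes, and Cd79b and Cd24a were not matched. Blnk had the largest difference by its probe set of higher mean, Cd72 lay below the floor throughout FVB hearts, and Cd79a was not called. The 250 bases before the start are shown for Blnk, Cd72 and Cd79a. Each is read 5′ to 3′ along the gene. Capitals mark the octamer, ATGCAAAT or its reverse ATTTGCAT, in Blnk. In Cd72 and Cd79a they mark GAGGAA or its reverse TTCCTC, a sequence read by the ETS factors PU.1 and Spi-B. Blnk lies at chr19:40994222-40994471 on the minus strand, Cd72 at chr4:43454627-43454876 on the minus strand and Cd79a at chr7:24897247-24897496 on the plus strand.
Blnk: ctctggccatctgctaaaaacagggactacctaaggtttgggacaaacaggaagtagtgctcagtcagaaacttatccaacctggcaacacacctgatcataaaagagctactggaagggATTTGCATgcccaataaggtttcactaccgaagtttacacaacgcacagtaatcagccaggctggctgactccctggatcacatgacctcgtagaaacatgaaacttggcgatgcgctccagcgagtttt
Cd72: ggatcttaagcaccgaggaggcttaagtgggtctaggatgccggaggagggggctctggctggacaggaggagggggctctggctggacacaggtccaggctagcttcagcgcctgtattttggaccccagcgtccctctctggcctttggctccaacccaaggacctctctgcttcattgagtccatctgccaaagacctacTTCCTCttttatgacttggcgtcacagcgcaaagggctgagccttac
Cd79a: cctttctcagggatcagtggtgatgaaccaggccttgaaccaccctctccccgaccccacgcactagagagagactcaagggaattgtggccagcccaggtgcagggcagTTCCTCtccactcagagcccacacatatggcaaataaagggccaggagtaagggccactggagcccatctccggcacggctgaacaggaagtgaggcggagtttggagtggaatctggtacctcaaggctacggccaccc

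Both strands of each window were searched. The octamer was found in Blnk, 130 bases before the start on the opposite strand, and not in the windows of Cd79a, Cd22, Cd72 or Pou2af1. It occurs in 1.74% of 32851 such windows. The ETS sequence GAGGAA was chosen after the values of Spib and Spi1 had been seen. It was found in Cd79a (140 bases before the start), in Cd72 (47 before) and in Pou2af1 (18 after), and 28.3% of all windows hold it. Other ETS sequences, such as those with the shorter ggaa alone, were not searched. The stretches shown for Blnk and Cd79a both hold aggaagt, unmarked. A match describes letters and says nothing about which factor was bound.

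By the probe set that stands for it, Blnk rose most among these genes in transgenic hearts of 3 weeks. Probe set 100772_g_at, of higher mean over all arrays, had signals of 85.2 and 38.0 in FVB females and 129.2, 70.4 and 35.3 in FVB males. In the 6 transgenic hearts its signals were 316.9 (lowest), 496.7 (median) and 668.8 (highest). Every transgenic array stood above every FVB array. The means were 506 ± 142 (SD, n = 6) and 71.6 ± 38.6 (SD, n = 5). On the log2 scale transgenic hearts exceeded FVB by 2.85 (SE 0.28, limma adjusted p = 8e-07), or 7.23-fold between the means of floored log2 signal, with 2 FVB arrays at the floor. The transgene effect is the mean of the female and male differences. It was 3.09 without the outlying FVB female array (limma adjusted p = 1.64e-06).

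The second Blnk probe set, 100771_at, also rose. It read 232.9 and 112.6 in FVB females, 135.6, 171.2 and 130.3 in FVB males, and 225.3 to 414.2 with a median of 337.6 in transgenic hearts. The groups met only at the outlying FVB female array, which lay above the lowest transgenic heart. On the log2 scale its rise was 1.03, with an SE of 0.19 (limma adjusted p = 0.000418), and 1.30 without that array (limma adjusted p = 3.47e-05). The 2 probe sets thus gave the same direction with different sizes.

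Of the 2 receptor chains, which are made as partners, Cd79b rose, with signals of 376.4 and 16 in FVB females, 49.1, 21.0 and 31.4 in FVB males, and 158.7 to 243.2 with a median of 220.6 in transgenic hearts. The 4 other FVB arrays stood far below all transgenic hearts, and the outlying FVB female array stood above them all. The rise of Cd79b came to 1.44 in log2 units (SE 0.38, limma adjusted p = 0.00593), with 3 FVB arrays at the floor. Without the outlying array it was 2.21 (SE 0.21, limma adjusted p = 1.01e-06), and without FVB female 3 instead it was 0.68 (limma adjusted p = 0.0159). Over all alternatives the limma adjusted p of Cd79b ran from 1.01e-06 to 0.152, the last with a floor at the 40th percentile (signal 114), which sets 4 of the 5 FVB arrays to that floor and gives 0.45.

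Cd79a was not called. It read 923.2 and 120.1 in FVB females, 196.2, 125.6 and 294.3 in FVB males, and 175.6 to 259.4 with a median of 218.4 in transgenic hearts. The ranges overlapped, and the outlying FVB female array had the highest Cd79a signal of all 17 arrays. Its log2 difference between transgenic and FVB hearts was -0.24, with an SE of 0.39 (limma adjusted p = 0.647). Leaving out 1 array turned it: it was 0.50 without the outlying array (limma adjusted p = 0.153), and -0.97, called lower, without FVB female 3 (limma adjusted p = 0.00737). Over the alternatives its limma adjusted p ran from 0.00737 to 0.885, so neither a rise nor a fall of Cd79a can be read from these arrays.

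Cd24a rose, and its groups did not overlap. The signals were 351.8 and 217.6 in FVB females and 246.9, 182.0 and 297.8 in FVB males, against 367.3 to 699.8 with a median of 489.6 in transgenic hearts. In log2 units it rose by 0.95, with an SE of 0.19 (limma adjusted p = 0.000969), or 1.93-fold, and 1.13 without the outlying array (limma adjusted p = 0.00055). Transgenic females lay at 410.3, 367.3 and 479.1 and transgenic males at 500, 699.8 and 588.9, so all males stood above all females, which was not tested on its own.

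**Figure D1:**
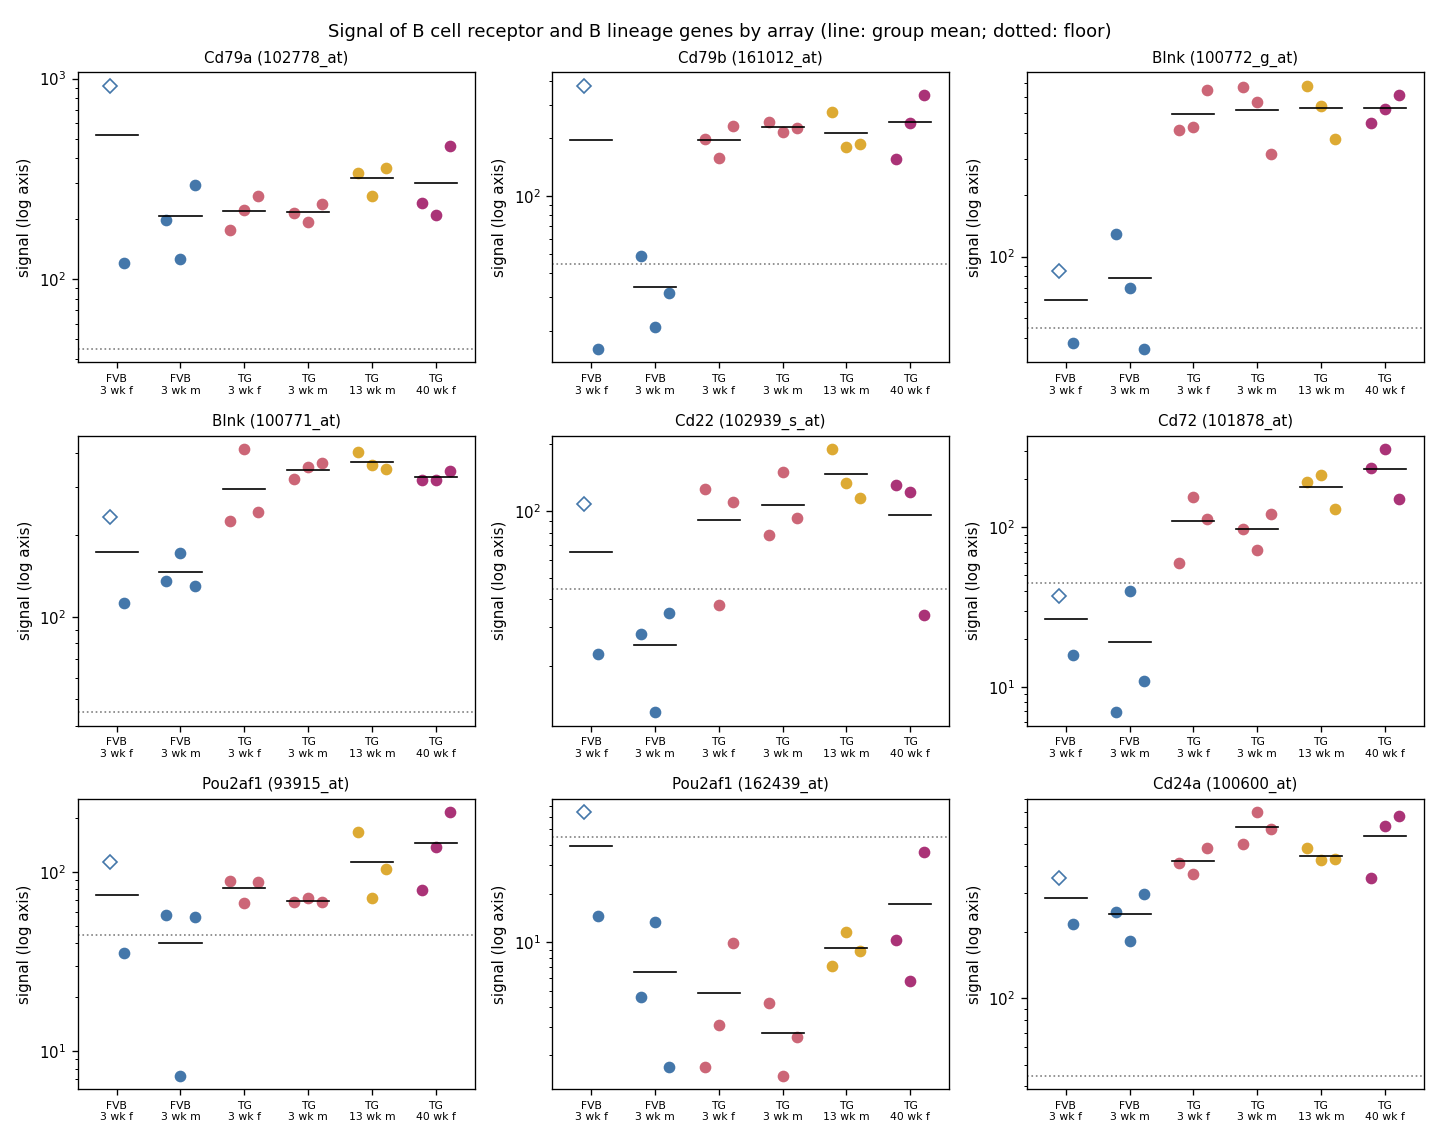
Deposited signal (log axis) of the 9 probe sets on each of the 17 distinct arrays, by group (TG, TNF transgenic; wk, weeks; f, female; m, male). Points are arrays, the open diamond is the outlying FVB female array, black lines are group means and the dotted line is the floor of 44.675; Blnk 100772_g_at, Cd72 and Cd24a separate FVB from transgenic hearts of 3 weeks, while the diamond is the highest point for Cd79a and Cd79b.

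Cd22, Cd72 and Pou2af1, the inhibitory receptors and the octamer coactivator, were dim and fell below the filter. It kept the 60% of probe sets with the highest mean floored log2 signal (7453). Their differences come from the fit to all 12422 probe sets. Every FVB array had Cd72 at the floor, with signals of 37.1 and 15.8 in females and 6.9, 39.6 and 10.8 in males, and all 6 transgenic arrays of 3 weeks were above the floor, at 60.1 to 153.8 with a median of 105. It was at least 2.19-fold higher there (limma adjusted p = 0.00546 with no filter). The adjusted p was 0.0214 without the outlying array and 0.0796 without that array and FVB male 1 and 2, which ends the call.

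Cd22 read 107.6 and 22.5 in FVB females, 27.9, 12.3 and 34.6 in FVB males, and 37.7 to 149.5 with a median of 102 in transgenic hearts. One transgenic array and 4 FVB arrays lay at the floor, so the groups overlapped. Its difference was 0.75 (SE 0.37, limma adjusted p = 0.147 with no filter) and 1.07 without the outlying array (limma adjusted p = 0.0834).

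Pou2af1 gave little signal. Probe set 93915_at read 113.4 and 35.5 in FVB females, 57.3, 7.3 and 55.8 in FVB males, and 67.5 to 88.8 with a median of 70.0 in transgenic hearts. Its difference was 0.30 (SE 0.30, limma adjusted p = 0.461 with no filter), and 0.63 without the outlying array (limma adjusted p = 0.168). The second Pou2af1 probe set, 162439_at, was above the floor on 1 of the 17 arrays alone, the outlying FVB female array at 64.1, and has no order elsewhere.

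**Figure D2:**
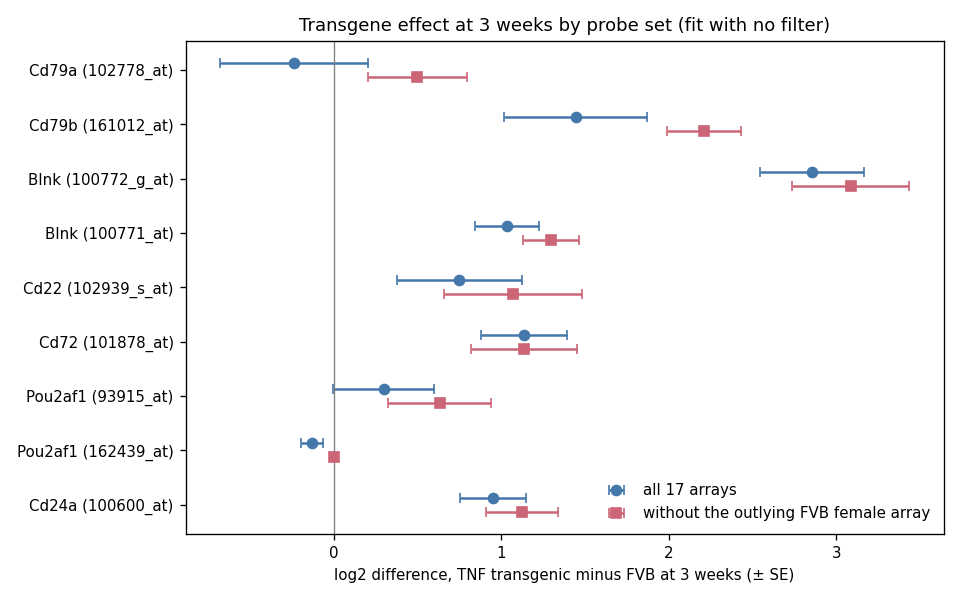
Log2 difference between TNF transgenic and FVB hearts of 3 weeks for the 9 probe sets, from the fit with no filter; circles use all 17 arrays, squares leave out the outlying FVB female array, and bars are SE. Cd79b moves from 1.44 to 2.21 and Cd79a from -0.24 to 0.50, while Blnk 100772_g_at stays the largest in both. The other Blnk probe set lies below Cd79b in both.

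In all, 3 of the 4 tested genes (Blnk, Cd79b and Cd24a) were called higher at 3 weeks and none lower, in a comparison where 24.7% of all tested probe sets were called higher. The median log2 difference of the 4 was 1.198, against -0.006 over all probe sets tested. Without the outlying array the same 3 were called, with a median of 1.67, against a background of 22%. The filter's cut, on the mean of floored log2 signal, lay at a signal of 111.2. Blnk 100772_g_at and Cd79b had FVB means under it, at 71.62 and 98.78 on the linear scale (6.105 and 6.124 in floored log2). Their linear means over all transgenic arrays were 518.03 and 220.52. Both passed the filter only through the transgenic arrays, so the counts among tested genes are not independent of their rise. With no filter 4 of the 7 genes were called higher (Cd72 added), against 15.2% of all probe sets. Without the outlying array it was again 4, against 13.7%. Counting separation instead, 3 of the 9 probe sets (Blnk 100772_g_at, Cd72 and Cd24a) had every transgenic array above every FVB array, as had 9.23% of all probe sets. Leaving out the outlying array made it 6 of 9, with Cd79b, Blnk 100771_at and Pou2af1 93915_at added, against 11.4%.

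Split by sex, among the 4 tested genes the effect was called for Blnk in females and for Blnk, Cd79b and Cd24a in males. In the fit with no filter Cd72 was called in females (1.18, limma adjusted p = 0.043) and in males (1.09, limma adjusted p = 0.0466). Without the outlying array its male effect was not called (limma adjusted p = 0.0584 with no filter). In females the log2 difference of Blnk was 2.97 (limma adjusted p = 9.57e-05), that of Cd24a 0.59 (limma adjusted p = 0.126), that of Cd79b 0.58 (limma adjusted p = 0.447) and that of Cd79a -0.62 (limma adjusted p = 0.431). That is 1 of 4 genes, where 19.4% of probe sets were called higher. In males Blnk differed by 2.73 (limma adjusted p = 4.26e-05), Cd79b by 2.31 (limma adjusted p = 0.00262), Cd24a by 1.31 (limma adjusted p = 0.00114) and Cd79a by 0.15 (limma adjusted p = 0.866). That is 3 of 4, against 16.9%. With only FVB male 3 kept, a lone array given the spread of the remaining groups, Blnk differed by 3.46 (limma adjusted p = 0.000139), Cd79b by 2.35 (limma adjusted p = 0.047) and Cd24a by 0.99 (limma adjusted p = 0.074), so 2 of 4 were called, against 12%. Without the outlying female array as well, Cd24a was called in males (limma adjusted p = 0.0436). The outlying array is 1 of only 2 FVB females. Without it FVB female 3 is a lone control, with Cd79b at the floor (signal 16). The female difference was then 2.12 for Cd79b, close to the male value, and 0.94 for Cd24a.

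The difference between the sexes was tested itself and none of the 4 genes was called, nor was any probe set (0%), although 1228 had an unadjusted limma p under 0.05. For Cd79b the female effect was lower by 1.72 than the male one (limma adjusted p = 0.278, and the only one of the 4 with an unadjusted p under 0.05), for Cd24a by 0.72 (limma adjusted p = 0.359) and for Cd79a by 0.77 (limma adjusted p = 0.616), while Blnk differed by 0.24 (limma adjusted p = 0.846). Leaving out FVB female 3, so that the outlying array alone stands for FVB females, called 2 of the genes and 1490 probe sets.

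The other parts of the pathway were read from lists, given as counts at 3 weeks, where 24.7% of all tested probe sets were called higher and 21.9% lower. Of 25 kinases and adaptors of the receptor, 17 were on the array and 16 tested, 11 called higher and 1 lower (median log2 difference 1.204). Vav1, a guanine nucleotide exchange factor, rose by 2.68, Prkcb, a protein kinase C, by 2.20, Sh3bp2, an adaptor, by 1.59 and Bcl10, which links to NF-kappaB, by 1.27 (limma adjusted p at most 1.23e-06). Btk, the kinase that Blnk brings to its substrate, rose by 1.34 (limma adjusted p = 0.00112) and Syk by 0.60 (limma adjusted p = 0.00431). Pik3r1, a regulatory subunit of PI3-kinase, fell by 0.96.

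Of 20 coreceptors and inhibitors, 12 were tested, 10 were called higher and 1 lower (median 1.70). Ptprc, the CD45 phosphatase of all leukocytes, rose by 4.28, Fcgr2b, the inhibitory Fc receptor, by 3.56, Ptpn22, a phosphatase of lymphocytes, by 2.87 and Ptpn6, the phosphatase that Cd22 and Cd72 recruit, by 2.83 (limma adjusted p at most 4.3e-07). Without the outlying array 8 were called higher and 1 lower.

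Of 20 transcription factors of the lineage, 12 were tested, 5 higher and 1 lower (median 0.61), and 7 higher and 0 lower without the outlying array. Spib rose by 3.79 by probe set 93657_at, Irf8 by 2.69, Prdm1 by 1.55 and Spi1, which encodes PU.1, by 1.5 (limma adjusted p at most 3e-05). The other Spib probe set, 93388_s_at, disagreed, at 219.9 to 264.3 on 4 FVB arrays, 1272.4 on the outlying one and 161.5 to 355.4 in transgenic hearts of 3 weeks. Of 31 surface and precursor genes, 16 were tested, 9 higher and 2 lower (median 0.95), among them Cd52, a leukocyte surface glycoprotein, by 5.04, Ltb, lymphotoxin beta, by 4.998, Il7r by 2.43 and Cxcr4 by 2.40. Without the outlying array the count was 10 higher and 0 lower.

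Of 15 siglecs, lectins and partners of CD24, 6 were tested, 4 higher and 1 lower (median 1.29), and 4 higher and 0 lower without the outlying array. Sema4d, the ligand of Cd72, rose by 3.57 (limma adjusted p = 2.73e-08), Selplg, like CD24 a ligand of P-selectin, by 2.37, and St6gal1, which makes the sialic acid linkage that Cd22 binds, by 1.26 by probe set 94432_at. The other St6gal1 probe set, 94431_at, had a median of 142.4 in FVB and 44.9 in transgenic hearts of 3 weeks.

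None of the tested markers that define B cells was called higher at 3 weeks. Of 7 such genes, 6 were on the array and 4 were tested, with 0 called in either direction by limma, and again 0 without the outlying array. The log2 difference was -0.08 for Ms4a1, which encodes CD20 (limma adjusted p = 0.789), -0.10 for Pax5, the B cell commitment factor (limma adjusted p = 0.676), 0.03 for Ighd (limma adjusted p = 0.933) and -0.39 for Blk, a B cell kinase (limma adjusted p = 0.189). In females alone Blk was called lower (log2 difference -1.09, limma adjusted p = 0.0253), and was not called there without the outlying array (-0.53, limma adjusted p = 0.346). The brighter Ms4a1 probe set, used in this test, was 178.3 to 292.1 in FVB and 124.5 to 280.4 in transgenic hearts of 3 weeks. The dimmer one, 99446_at, not used in this test, was 18.2 to 64.7 in FVB, while 1 transgenic array lay at 14.8 and the other transgenic arrays of 3 weeks, at 68.8 to 149.8, stood above every FVB array. Cr2 was at most 33.8 on all arrays. The summed signal of the 6 genes was 566.2 to 1157.9 in FVB and 714 to 1107.4 in transgenic hearts of 3 weeks, and the ranges overlapped.

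Markers of macrophages, T cells and dendritic cells were mostly higher in transgenic hearts of 3 weeks. Calls for markers of neutrophils and of thymus and lymph node were mixed, and no erythroid marker was called higher. Of 20 macrophage genes, 19 were on the array and 17 tested, 15 called higher and 1 lower (median 2.65), and their summed signal was 7443.6 to 11425 in FVB against 56230.2 to 69564.6 in transgenic hearts of 3 weeks. Of 15 T cell genes, 8 were tested, 6 higher and 1 lower, with sums of 1505.2 to 2310.1 and 2623.8 to 4744.7. Of 8 dendritic cell genes, 6 were tested and 5 were higher, with sums of 1168 to 1881.8 and 3473.6 to 4557.5. Of 10 neutrophil genes, 5 were tested, 3 higher and 1 lower, with sums of 668.1 to 2853.5 and 1399.4 to 2195.9. Of 6 thymus and lymph node genes, 3 were tested, 1 higher and 1 lower, with sums of 321 to 1470.9 and 1808.9 to 2548.5 that did not overlap. Of 8 erythroid genes, 4 were tested, 0 higher and 2 lower, with sums of 26171.9 to 39562.4 and 14038.6 to 24774.5. Many genes of the pathway lists, among them Ptprc, Ptpn6, Spi1, Irf8, Syk, Btk and Vav1, are known from myeloid cells or other leukocytes as well. The part of these cells in the rise of Blnk, Cd79b, Cd72 and Cd24a was not tested. On the outlying FVB array the sum of macrophage genes was the lowest of the 5 FVB arrays, at 7443.6, that of T cell genes the highest, at 2310.1, and that of B cell genes 1030.7. Its sums of neutrophil genes (2853.5, other FVB arrays 668.1 to 1022.5), of thymus and lymph node genes (1470.9, others 321 to 553.5) and of dendritic cell genes (1881.8, others 1168 to 1280.8) were also the highest of FVB hearts, beside its high Cd79a and Cd79b. Their part in those values was not tested.

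**Figure D3:**
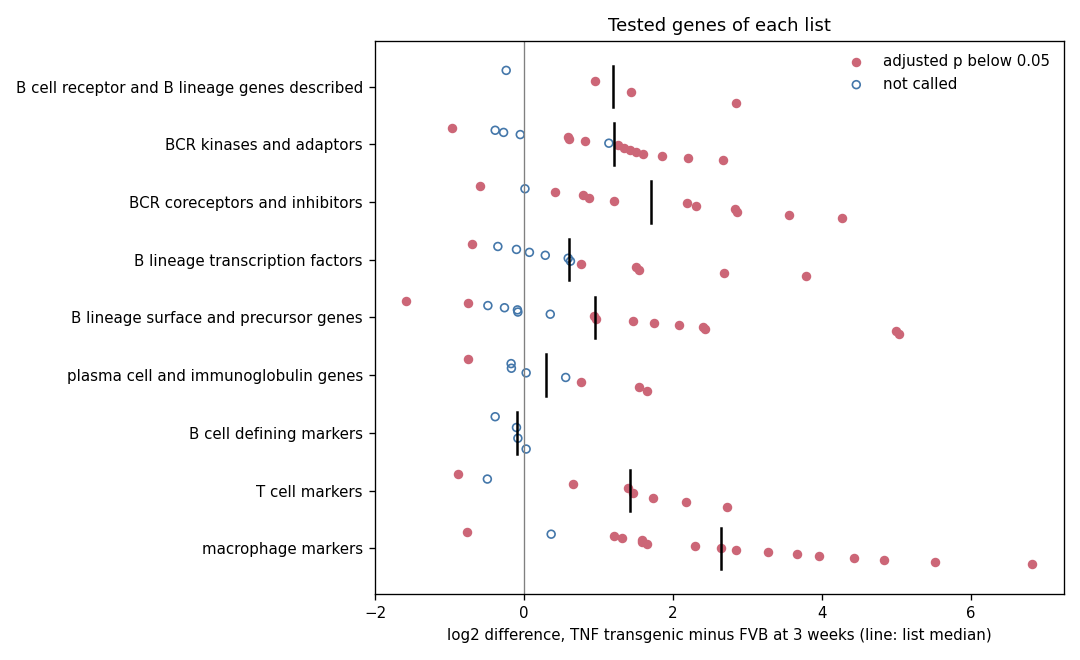
Log2 difference between TNF transgenic and FVB hearts of 3 weeks for each tested gene of 9 lists, filled where the limma adjusted p is under 0.05 and open otherwise; vertical lines are list medians. The 4 B cell defining markers lie near 0, while the 17 macrophage markers have a median of 2.65.

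With age none of the 4 tested genes was called. From 3 to 13 weeks in transgenic males the log2 change was 0.56 for Cd79a (SE 0.52, limma adjusted p = 0.904), -0.12 for Cd79b (limma adjusted p = 0.988), 0.07 for Blnk (limma adjusted p = 0.988) and -0.41 for Cd24a (limma adjusted p = 0.772). Of all probe sets, 0.523% were called (39). Blnk 100772_g_at read 668.8, 566.3 and 316.9 in males of 3 weeks and 682.2, 540.5 and 372.6 at 13 weeks, and Cd79b read 243.2, 214.8 and 226.3 and then 272.7, 180.1 and 186.3. Both kept overlapping ranges.

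Single probe sets separated the ages without passing the test. Cd79a was 214.7, 192.9 and 237.7 at 3 weeks and 339.6, 259.4 and 357.6 at 13 weeks, and Cd72 was 97.6, 72.1 and 121.6 and then 190.9, 213.9 and 130.4 (log2 change 0.88, limma adjusted p = 0.523 with no filter). In both the 13-week arrays stood above the 3-week arrays, as they did in 5.51% of all probe sets. Cd24a was lower on all 3 arrays of 13 weeks, at 481.2, 423.8 and 427.9, a separation found in 6% of probe sets.

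From 3 to 40 weeks in transgenic females 0 of the 4 genes were called, with 0.671% of probe sets called (50), and all 9 probe sets overlapped between the ages. Cd79a at 40 weeks read 240.5, 207.7 and 459.2 (log2 change 0.39, limma adjusted p = 0.907), Cd79b 155.6, 240.5 and 337.3 (0.26, limma adjusted p = 0.949), Blnk 447.8, 524.6 and 610.8 (0.11, limma adjusted p = 0.982) and Cd24a 351.7, 604.9 and 671.7 (0.33, limma adjusted p = 0.804). Cd72 read 60.1, 153.8 and 112.3 at 3 weeks and 236.3, 310.4 and 149.8 at 40 weeks, a change of 1.14 (limma adjusted p = 0.279 with no filter). Pou2af1 93915_at read 88.8, 67.5 and 88.3 and then 79.4, 137.6 and 216.7 (0.72, limma adjusted p = 0.84), and Cd22 131.5, 121.8 and 33.8 at 40 weeks (0.07).

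The difference between the 2 age changes, which also differ in sex, was called for none of the genes and for 0% of all probe sets (214 had an unadjusted limma p under 0.05). Cd24a came nearest, with the change to 40 weeks in females higher by 0.74 than that to 13 weeks in males (limma adjusted p = 1).

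Of the pathway lists, only the plasma cell and immunoglobulin list held calls with age in the fit to all 17 arrays, 2 of 8 tested genes higher at each age, the same 2 genes. Without the outlying FVB array 1 kinase and adaptor gene, Rac2, was called lower at 13 weeks (-1.03, limma adjusted p = 0.0433, against 0.317 with it). Igha, the constant region of IgA, was 18.8 to 119.9 in transgenic hearts of 3 weeks, 3473.6 to 4123.4 at 13 weeks and 3847.9 to 8491.9 at 40 weeks. Its log2 change was 5.07 to 13 weeks (limma adjusted p = 6.85e-07) and 6.74 to 40 weeks (limma adjusted p = 1.87e-08). Jchain, which joins IgA and IgM into polymers, was 56.9 to 132.3, then 651 to 702.9 and 601.4 to 1969.5 (2.79, limma adjusted p = 0.00282, and 3.74, limma adjusted p = 8.32e-05). At 3 weeks that list had 3 genes higher and 1 lower of 8 tested (median 0.30), against the 24.7% of all probe sets called higher, and 4 higher and 0 lower without the outlying array. Among the 3 was Ighm, the constant region of IgM, higher by 1.65 (limma adjusted p = 0.000278). The others were Prdm1 and Xbp1, which were already counted in the list of transcription factors. Igha and Jchain were not called. Cd79a, Cd79b and Blnk were not called at either age at which Igha and Jchain were. The sum of B cell defining markers was 936.4 to 1127.8 at 13 weeks and 817.7 to 1356.6 at 40 weeks, overlapping the 714 to 1107.4 of 3 weeks. None of the 4 tested was called with age. Ms4a1 changed most, by log2 0.78 to 13 weeks (limma adjusted p = 0.39) and 0.64 to 40 weeks (limma adjusted p = 0.532).

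Genes whose pattern was most like each member's were looked up by Pearson correlation of log2 signal over the 17 arrays, with the value within the 12 transgenic arrays beside it, since FVB and transgenic hearts form separate clusters. For Blnk they were Scd2 (0.971 and 0.732), a fatty acid desaturase, H2-K1 (0.968 and 0.647) and H2-Aa (0.968 and 0.534), genes of the class I and class II histocompatibility molecules. For Cd79b they were Il17ra (0.958 and 0.753), Mcoln2 (0.956 and 0.544) and Dpp7 (0.947 and 0.574). For Cd24a they were Itga4 (0.932 and 0.811), an integrin chain of leukocytes, Trbv1 (0.924 and 0.748) and H2-Oa (0.924 and 0.754). For Cd79a they were Pacsin1 (0.917 and 0.781), Lmbr1l (0.88 and 0.776) and Thap7 (0.853 and 0.621). All points share the arrays' common scaling. Over 17 arrays those of Blnk, Cd79b and Cd24a also share the difference between FVB and transgenic hearts, which was not called for Cd79a. Without the outlying FVB female array, where Cd79a was highest, its values were 0.85 (Pacsin1), 0.814 (Lmbr1l) and 0.73 (Thap7). None of the 12 genes is another member, which the rule left out.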

How the data were processed

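Total RNA of mouse hearts had been hybridised by the authors to Affymetrix U74Av2 arrays, 1 per sample. What the authors deposited is 1 intensity per probe set and array, linear and already scaled to a common level. The software behind them is not given in the sources used here. Depth does not apply, and the number of arrays limits precision.

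Signals were floored at the 25th percentile (44.675) and taken as log2. The 60% of 12422 non-control probe sets with the highest mean (7453) were tested two-sided by the moderated statistic of limma 3.58.1 (lmFit, then eBayes; R 4.3.3), with 6 group means over 17 distinct arrays, 11 residual degrees of freedom and Benjamini-Hochberg adjustment within each of 7 comparisons, called at 0.05. The fit was tested on simulated data. Where a gene has several probe sets, that of highest mean over all arrays, transgenic ones included, stands for it. Symbols come from the platform annotation. The members, the gene lists and the tests were chosen with earlier results of these data known. In each list the genes named are up to 4 of smallest p among those called with no overlap between FVB and transgenic arrays of 3 weeks, beside a fixed set always looked up (such as Ms4a1, Pax5, Ighm, Jchain, Ptprc, Ptpn6, Syk and Btk). Pik3r1, Igha, Ighd, Blk, Cr2 and Rac2, and second probe sets, were named after their values were seen. Alternatives changed the normalisation, floor, pseudocount, filter, variance model, block and arrays used. The fits that join no filter with left-out arrays were added after seeing the data. Protein sequences were not used here.

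Same-numbered arrays of different groups were checked for pairing. Over 40 same-numbered pairs the correlation of deviations from the group means was -0.34 to 0.47, with a median of 0.05, against a median of 0.01 over 80 pairs of different number, so the numbers were not taken to pair samples.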

Additional observations from a re-analysis of the deposited data

Results flagged for a closer look

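In each of 18 groups of values (9 probe sets in FVB and in transgenic hearts of 3 weeks), the gap of the highest or lowest array to its neighbour was set against the group's range (Dixon's 95% critical value, 0.71 for 5 arrays and 0.625 for 6). Chance marks about 1 in 20 such groups, and 5 of the 18 were marked. In FVB hearts 4 were the same array, that of FVB females 1 and 2: Cd79a at 923.2 (gap 0.783 of the range), Cd79b at 376.4 (0.908), Cd22 at 107.6 (0.766) and Pou2af1 162439_at at 64.1 (0.795). That array ranked Cd79a at percentile 84.6 of its own signals and Cd79b at 64.2, against 41.6 to 62.0 and 10.6 to 26.5 on the other FVB arrays, while Blnk 100772_g_at was at 21.4, below the 22.7 to 43.0 of the others. Cd22 was at percentile 27.9 there and Pou2af1 162439_at at 14.2, both low, against 11.6 to 23.4 and 0.499 to 12.5 on the others. In transgenic hearts of 3 weeks, Pou2af1 162439_at at 9.9 on female 3 was marked (0.679), a value below the floor and thus without order. The cause of these values was not tested.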

How the results depend on the processing

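Blnk and Cd24a kept their direction and call in the effect at 3 weeks under all 24 alternatives (log2 2.07 to 3.45 and 0.78 to 1.13). Cd79b kept its direction (0.45 to 2.23) and lost its call with the floor at the 40th percentile. The number of the 7 genes called stayed between 2 and 4, and no gene was called with age under any of 14 alternatives for each age. The cause of the changes that follow was not tested.

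Cd79a in that effect was 0.20 without the outlying FVB female array and FVB male 1 and 2, the same with no filter added, and 0.50 with no filter and without the outlying array alone. Leaving out 1 array at a time it ran from -0.97 to 0.50. In females, called probe sets numbered 699 with array weights, 1013 with only the groups compared and 1361 without those 3 arrays, and 1446 to 3083 leaving out 1 array, against 2587. With no filter 2 of the 7 genes were called in females, Blnk and Cd72, and the share over all probe sets is not given for that fit. In males 1399 probe sets were called without FVB male 1 and 2. For the sex difference 6 were called with quantile normalisation, 3 with the higher floor, 91 with no filter, 155 with both identical columns kept and 2 without FVB male 1 and 2. Leaving out 1 array gave 0 to 1490 probe sets and 0 to 2 genes.

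To 13 weeks 61 probe sets were called with the higher floor and 80 with array weights, and 14 to 26 leaving out 1 array. Blnk then ran from -0.25 to 0.30. To 40 weeks 78 were called with the higher floor, 77 with no filter and 803 with array weights, and 28 to 57 leaving out 1 array. With array weights Cd79a was -0.026 and Blnk -0.011. Leaving out 1 array, Cd79b ran from -0.005 to 0.55 and Blnk from -0.005 to 0.32. For the difference between the age changes 1 probe set was called with array weights.

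With the replicate number as a replicate block, 3328 probe sets and 3 of the genes were called at 3 weeks, and the block changed no other call of these genes. The smallest group held 2 arrays. Signals lay at the floor on 2 to 5 of the 5 FVB arrays for Blnk 100772_g_at, Cd79b, Cd22, Cd72 and Pou2af1, so their fitted differences depend on the floor.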

Other observations

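Probe sets of single B cell genes disagreed. The brighter Ms4a1 probe set overlapped between FVB and transgenic hearts of 3 weeks, while a second and dimmer one, 99446_at, named after its values were seen, was 18.2 to 64.7 in FVB, 14.8 to 149.8 in transgenic hearts of 3 weeks, 117.9 to 176.7 at 13 weeks and 48.8 to 289.4 at 40 weeks. Of the Ighm probe sets, 93584_at was 68.1 to 239.8 in FVB and 353 to 580.7 in transgenic hearts of 3 weeks, with no overlap, whereas 101870_at was at most 9.3 on the 6 transgenic arrays of 3 weeks, 185.1 to 351.8 at 13 weeks and 226 to 2766.7 at 40 weeks. These are values with no test.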
